A study of Homo sapiens with 6 samples.

Results

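The cadherin genes CDH1 and CDH3, the transcription factors GRHL2 and ZEB1 and the filament gene VIM were examined in HCT116 cells that carried an shRNA, a short hairpin RNA that lowers its target, directed at ERRα or scrambled. Their probe sets were found through the gene names in the authors' deposited comparison, which holds 2122 of the 257430 probe sets on the arrays and names 1458 genes. It names 25 probe sets for these 5 genes: 7 for CDH1, 8 for CDH3, 7 for GRHL2, 2 for ZEB1 and 1 for VIM, called listed below. To these were added the unbroken runs of consecutive probe set identifiers around them, which gave 85 probe sets in all: 20 around CDH1, 17 each around CDH3, GRHL2 and ZEB1, and 14 around VIM. Whether an unnamed probe set of such a run measures the gene is not recorded. For 2 of the 85 the lost decimal mark of a value could not be restored with certainty, which leaves 83.

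HCT116 is an established human colon carcinoma line. Both groups were grown in medium with 10% serum, infected with lentivirus for 48 h and kept in puromycin for 48 h, which leaves cells that carry the vector. The groups shscrambled and shERRalpha differ by the hairpin the virus carried, and each has 3 arrays, which are biological replicates by their labels. Separate infections are not mentioned there, so the spread between them may be technical, and the labels name 1 construct per group. Total RNA was measured on Affymetrix whole-transcript arrays in log2 units, at several probe sets per gene.

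E-cadherin, encoded by CDH1, and P-cadherin, encoded by CDH3, are calcium-dependent adhesion proteins of epithelial cells that join neighbouring cells at adherens junctions. GRHL2, a grainyhead-like transcription factor, is known to activate CDH1 and other epithelial genes. ZEB1, a zinc-finger and homeodomain repressor, is known to bind E-box letters in the CDH1 promoter and to shut the gene down, and GRHL2 and ZEB1 are known to repress each other. Vimentin, encoded by VIM, is the intermediate filament protein typical of mesenchymal cells. Loss of E-cadherin with gain of ZEB1 and vimentin is the textbook pattern of an epithelial to mesenchymal transition.

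On these arrays CDH1, CDH3 and GRHL2 were lower with the shRNA against ERRα, and VIM and the listed probe sets of ZEB1 were higher. Over the listed probe sets, the median per array was 4.18-fold lower for CDH1, 2.09-fold lower for CDH3 and 3.59-fold lower for GRHL2. It was 4.27-fold higher for ZEB1, whose shscrambled level was near background, and higher by 1.81 log2 units for VIM. The CDH1 size depended on the summary: the median of its 7 probe set changes was -1.71 log2 units, against -2.06 for the median per array. Of the 83 probe sets, 22 were listed as lower, against 0.557% of all probe sets on the arrays, and 3 as higher, against 0.271%. The listed probe sets carry their names because they passed an unadjusted p under 0.01 and a 2-fold change on these same 6 arrays. Their direction and size are therefore a description without a test, and the sizes are biased upward by the selection. All measures of this contrast on the rest of each run come from the same arrays and are also described without a test. With bulk RNA, fewer cells that express a gene and less RNA per cell cannot be told apart.

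The arrays had medians of 4.28 to 4.43 log2 units. The array of shERRα replicate 1 stood apart: across probe sets it correlated at 0.867 to 0.877 with the other 5, whose 10 pairs gave 0.933 to 0.947. Values without it are given below. The target itself, ESRRA, was at 4.86, 5.10 and 5.28 log2 units in the shscrambled arrays and at 2.29, 2.60 and 2.23 in the shERRα arrays (median of its 2 listed probe sets). These 2 probe sets were listed for a difference on these same arrays. Their shERRα mean, 2.38 log2 units, was near background, so the size of the difference is not exact. Over the whole table limma called 0 of 256161 probe sets at an adjusted p under 0.05, with 18539 at an unadjusted p under 0.05. An equal-variance t statistic also called 0, with 18564 at an unadjusted p under 0.05. Precision is limited by there being 3 arrays a group.

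CDH1 was lower over most of its run. The median of the 7 listed probe sets was 7.69, 7.67 and 7.72 log2 units in shscrambled replicates 1, 2 and 3, and 5.93, 5.96 and 4.998 in shERRα replicates 1, 2 and 3. The shscrambled arrays lay close together, shERRα replicate 3 was the lowest array, and the groups did not overlap. The difference was -2.06 log2 units (SE 0.32; 7.69 ± 0.03 against 5.63 ± 0.55, SD, n = 3 and 3). The median of the 7 probe set changes was smaller, at -1.71 log2 units. Among the listed ones, probe set 7996846 had the largest difference, with 7.69, 7.57 and 7.72 log2 units in shscrambled and 5.72, 5.96 and 4.82 in shERRα, 4.47-fold lower. Probe set 7996853 had the smallest, 2.52-fold lower, with 5.58, 5.25 and 5.49 log2 units in shscrambled against 4.40, 4.23 and 3.69.

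The 13 unnamed probe sets of the CDH1 run mostly pointed the same way. Their median per array was 6.91, 6.66 and 7.26 log2 units in shscrambled and 5.65, 5.90 and 4.97 in shERRα, a difference of -1.44 (SE 0.33), and the groups did not overlap. Over the whole run, 16 of 20 probe sets were at least 2-fold lower, a size reached by 6.84% of all probe sets on the arrays. In 15 of 20 all shERRα arrays lay below all shscrambled arrays, which holds for 8.37% of all probe sets. Since listing required a 2-fold change and the listed probe sets were chosen on this contrast, these shares are set side by side and nothing is read from their difference. Unnamed probe set 7996850 was at 9.27, 9.51 and 9.22 log2 units in shscrambled and at 6.76, 8.32 and 6.97 in shERRα, 3.95-fold lower. It was not listed, and shERRα replicate 2 lay well above the other shERRα arrays.

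Not every probe set of the CDH1 run differed. The first 3 identifiers stood apart from the rest. Probe set 7996840, the third, was at 7.67, 7.54 and 7.75 log2 units in shscrambled and 7.53, 7.43 and 7.70 in shERRα, so that the groups overlapped (difference -0.10, SE 0.10). The first, 7996838, was higher in shERRα, at 3.48, 4.28 and 3.87 log2 units against 3.32, 2.47 and 1.05, without overlap. The second, 7996839, and the 12th, 7996849, overlapped, with differences of -0.33 (SE 0.55) and -0.21 (SE 0.38). The 16 others were each at least 2-fold lower, by -1.33 to -2.16 log2 units. Whether the identifiers follow the order of the exons is not given in the sources used here.

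CDH3 lies beside CDH1 on chromosome 16 in the RefSeq annotation of GRCh38.p14, with no other protein-coding gene between them, and the identifiers of their runs are likewise separated by a single missing number. Its difference was smaller and more even along the run. The median of the 8 listed probe sets was 8.22, 8.27 and 8.01 log2 units in shscrambled and 7.04, 7.37 and 6.90 in shERRα, a difference of -1.06 (SE 0.16; 8.17 ± 0.14 against 7.10 ± 0.24, SD, n = 3 and 3). The listed probe sets lay between 2.06-fold and 2.47-fold lower. The 9 unnamed ones gave a median of 8.18, 8.22 and 8.12 log2 units in shscrambled and 6.90, 7.61 and 6.83 in shERRα, a difference of -1.06 (SE 0.25). In both summaries every shERRα array lay below every shscrambled array.

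All 17 probe sets of the CDH3 run had a lower mean in shERRα, against 50.2% of all probe sets. Of these, 13 were at least 2-fold lower, against 6.84% of all probe sets, and 15 were lower without overlap between groups, against 8.37%. The 2 that overlapped were the first, 7996820, and the third, 7996822. The latter was at 8.45, 8.46 and 8.15 log2 units in shscrambled and 8.46, 8.07 and 7.93 in shERRα, a difference of -0.20 (SE 0.19). Probe set 7996832 had the largest difference, -1.74 log2 units (SE 0.73), with shERRα replicate 1 far below the others: the shscrambled arrays were at 8.18, 8.22 and 8.14 and the shERRα arrays at 5.03, 7.45 and 6.83. CDH3 also shows where the selection falls. Probe set 7996823 was listed with a difference of -1.04 log2 units and an unadjusted p of 0.00239 by the equal-variance t statistic. Probe set 7996826, with -1.03 and 0.0145 by the same statistic, was not.

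**Figure D1:**
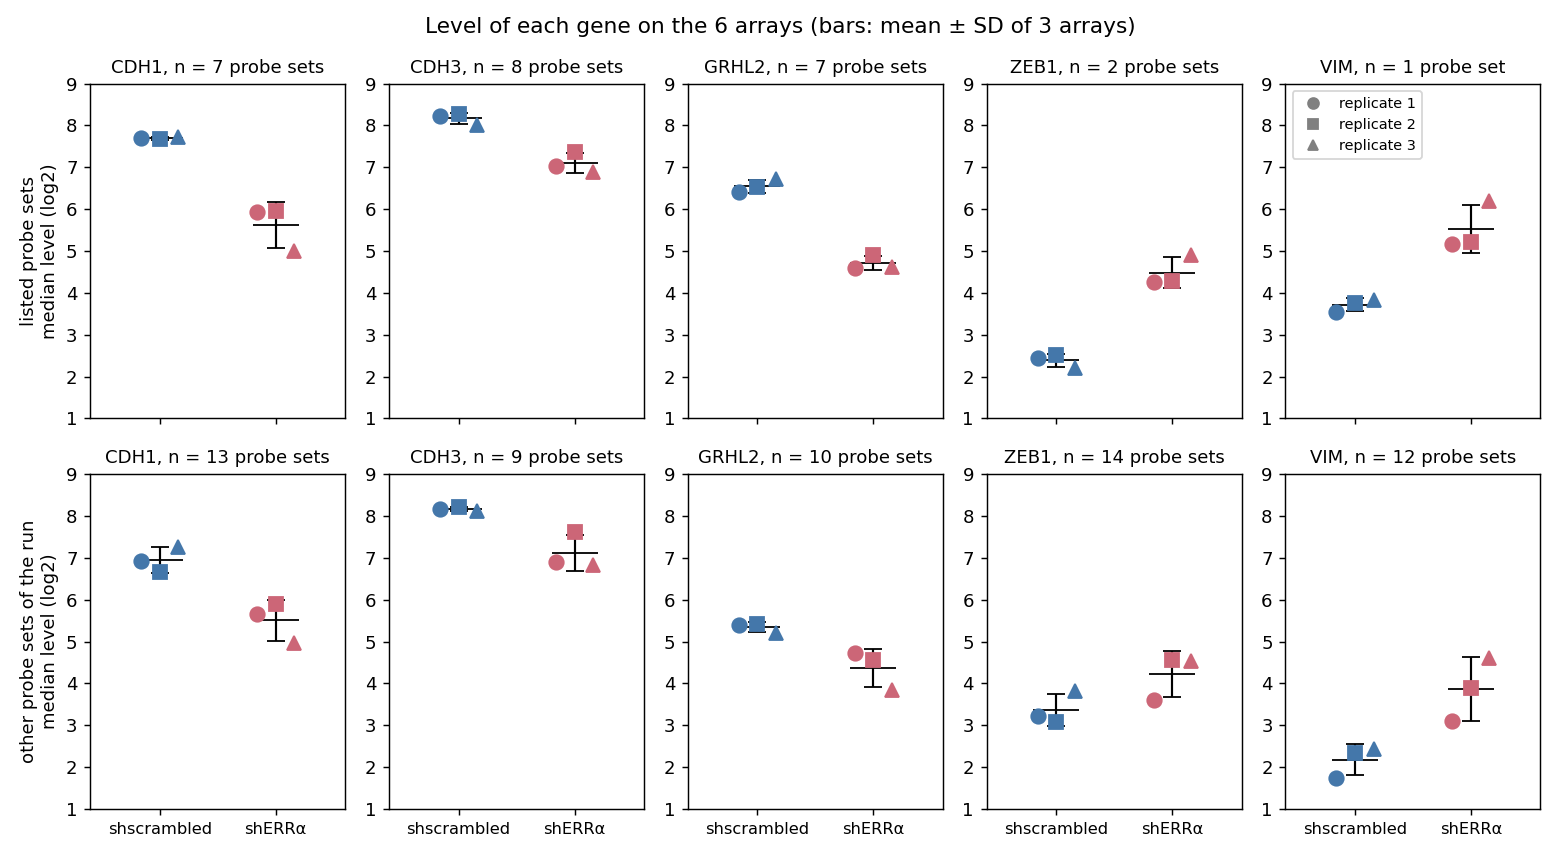
Level in log2 units of each gene on the 3 shscrambled and 3 shERRα arrays, as the median of its listed probe sets (top) and of the unnamed probe sets of its run (bottom). Marker shapes are replicates and bars are mean ± SD. The groups are apart in every panel except the unnamed probe sets of ZEB1, where shERRα replicate 1, at 3.60, lies below shscrambled replicate 3, at 3.81.

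GRHL2 was lower at nearly all of its run and varied least among the shERRα arrays at its listed probe sets. Their median was 6.40, 6.54 and 6.71 log2 units in shscrambled and 4.60, 4.90 and 4.62 in shERRα, a difference of -1.85 (SE 0.13; 6.55 ± 0.16 against 4.70 ± 0.17, SD, n = 3 and 3). The groups did not overlap. Probe set 8147712 gave 7.24, 7.58 and 7.45 log2 units in shscrambled and 5.67, 5.69 and 5.62 in shERRα, 3.40-fold lower, and its 3 shERRα arrays had an SD of 0.03. The 7 listed probe sets ranged from 2.87-fold lower at 8147707 to 4.51-fold lower at 8147706.

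The 10 unnamed probe sets of the GRHL2 run were at a median of 5.40, 5.42 and 5.21 log2 units in shscrambled and 4.72, 4.55 and 3.84 in shERRα. Their difference was -0.97 log2 units (SE 0.28) without overlap, smaller than at the listed ones. Of the 17 probe sets, 14 were at least 2-fold lower, against 6.84% of all probe sets, and 13 were lower without overlap, against 8.37%. The exception in direction was the first identifier, 8147698, at 5.33, 5.30 and 3.20 log2 units in shscrambled and 5.76, 4.18 and 4.75 in shERRα. Probe set 8147710 had a large mean difference, -1.98 log2 units, with an SE of 0.99, since shERRα replicate 2 was at 1.31 while the other shERRα arrays were at 4.62 and 3.77.

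ZEB1 was higher at a few probe sets and little different at others. Listed probe set 7926923 was at 3.65, 4.10 and 3.90 log2 units in shscrambled and 5.76, 6.09 and 6.12 in shERRα, 4.31-fold higher (difference 2.11, SE 0.17). Listed probe set 7926925 was at 1.24, 0.91 and 0.52 log2 units in shscrambled and 2.74, 2.47 and 3.71 in shERRα. Its shscrambled level lay under 2.41 log2 units, the 25th percentile of all probe set means and taken here as near background, so its fold is not exact. The groups did not overlap at either of these probe sets.

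Of the 14 unnamed probe sets of the ZEB1 run, 10 overlapped between groups and 4 were higher without overlap, and the groups overlapped in the median per array. That median was 3.21, 3.07 and 3.81 log2 units in shscrambled and 3.60, 4.55 and 4.54 in shERRα, a difference of 0.86 (SE 0.39). Over the run of 16 probe sets used the difference was the same 0.86, and 1.18 without shERRα replicate 1. All 16 had a higher mean in shERRα, from 0.16 to 2.11 log2 units, while 50.2% of all probe sets had a lower one. In 5 of the 16 the shscrambled mean lay under 2.41 log2 units, and in 2 both groups did. Of the 16, 5 were at least 2-fold higher, against 3.72% of all probe sets, and 6 did not overlap between groups, against 5.69%. Unnamed probe sets 7926926 and 7926932 were 3.80-fold and 3.34-fold higher. The former was at 3.23, 4.74 and 4.17 log2 units in shscrambled and 5.54, 5.70 and 6.67 in shERRα. The first identifier, 7926917, was at 8.54, 8.09 and 8.27 log2 units in shscrambled and overlapped with shERRα, at 9.01, 7.78 and 8.76.

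VIM carried 1 listed probe set, 7926375, at 3.54, 3.77 and 3.83 log2 units in shscrambled and 5.16, 5.21 and 6.19 in shERRα (difference 1.81, SE 0.35). The 12 unnamed probe sets of its run were at a median of 1.75, 2.35 and 2.44 log2 units in shscrambled and 3.09, 3.88 and 4.61 in shERRα, a difference of 1.68 (SE 0.49) without overlap. The median of the 12 probe set changes was smaller, at 0.89 log2 units. The shscrambled medians lie at or near the 25th percentile, 2.41 log2 units, so the size of the difference in either summary is not exact. Unnamed probe sets 7926373 and 7926376 each differed by 2.82 log2 units, from shscrambled means that also lay under 2.41, so these sizes are not exact either. The latter was at 1.81, 2.18 and 0.96 log2 units in shscrambled and 3.21, 4.63 and 5.57 in shERRα.

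Of the 13 probe sets used in the VIM run, 7 were at least 2-fold higher, against 3.72% of all probe sets, and 6 were higher without overlap between groups, against 5.69%. A lower mean was found in 3 of the 13, against 50.2%. In 7 of the 13 the shscrambled mean lay under 2.41 log2 units, and in 4 both groups did. Probe set 7926371 did not separate the groups, at 4.38, 4.71 and 4.48 log2 units against 4.46, 4.47 and 4.64. For the undecided probe set 7926380 the reading nearer to its clear values gave a difference of 3.60 log2 units and the other reading -0.16, and it was left out.

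**Figure D2:**
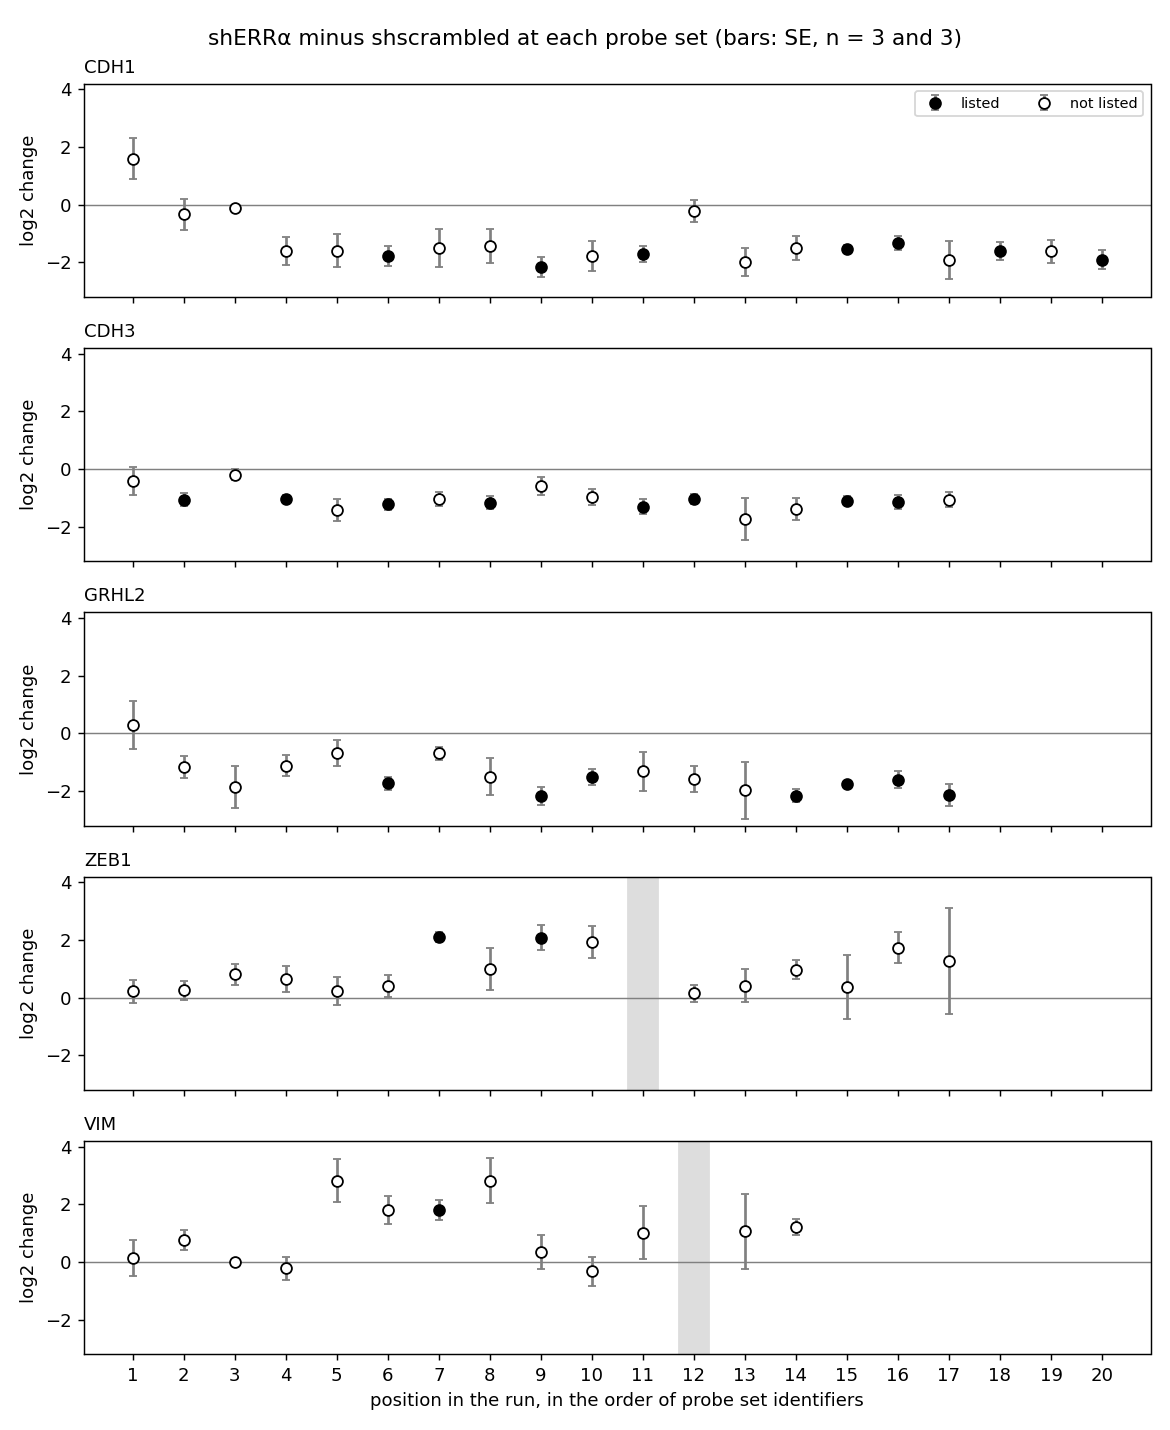
Difference in log2 units, shERRα minus shscrambled, at each probe set of the 5 runs (bars are SE, n = 3 and 3), in the order of identifiers; filled points are listed and grey bands mark the 2 undecided probe sets. CDH1 lies between -1.33 and -2.16 except at its first 3 and its 12th identifier, CDH3 and GRHL2 lie below 0 at all but 1 point, and ZEB1 and VIM lie mostly above 0, with several shscrambled levels near background.

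Promoter sequence is shown for ZEB1 and VIM, the members with a promoter window in the reference table used, with the E-box letters that ZEB1 is known to bind in capitals. These are CACCTG and CACCTA and, on the other strand, CAGGTG and TAGGTG. The windows come from RefSeq (GRCh38.p14), run from 250 bases before to 50 after a gene start, and matched 2 of the 5 members by symbol. ZEB1 has 7 such windows, of which the one with the most E-box letters is shown, and VIM has 1. Both lie on the plus strand, 5′ to 3′, the first at chr10:31318966-31319265 and the second at chr10:17227991-17228290.
ZEB1: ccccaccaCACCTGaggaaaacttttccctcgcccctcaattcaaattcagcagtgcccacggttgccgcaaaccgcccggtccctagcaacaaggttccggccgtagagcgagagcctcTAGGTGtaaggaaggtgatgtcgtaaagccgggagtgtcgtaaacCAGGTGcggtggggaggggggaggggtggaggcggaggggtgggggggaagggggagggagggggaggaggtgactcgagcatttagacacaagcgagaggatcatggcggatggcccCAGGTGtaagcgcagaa
VIM: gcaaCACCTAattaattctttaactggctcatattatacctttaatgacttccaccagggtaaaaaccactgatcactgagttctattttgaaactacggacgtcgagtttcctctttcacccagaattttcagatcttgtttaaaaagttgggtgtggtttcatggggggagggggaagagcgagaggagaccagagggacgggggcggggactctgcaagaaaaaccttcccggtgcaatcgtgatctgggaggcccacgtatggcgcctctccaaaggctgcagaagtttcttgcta

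The ZEB1 window shown holds E-box letters at 4 places, and 2 of the 7 ZEB1 windows hold any. The VIM window holds CACCTA once, beginning 246 bases before the start. Of all 35116 promoter windows, 26.8% hold at least 1 of these E-box letters on either strand. The letters AAGGTCA, the half-site that ERRα is known to bind, were in none of the ZEB1 and VIM windows on either strand and in 3.92% of all windows. The grainyhead letters AACCGGTT, which read the same on both strands, were in none of them and in 0.134% of all windows. A match is a description of these letters, not a bound site.

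**Figure D3:**
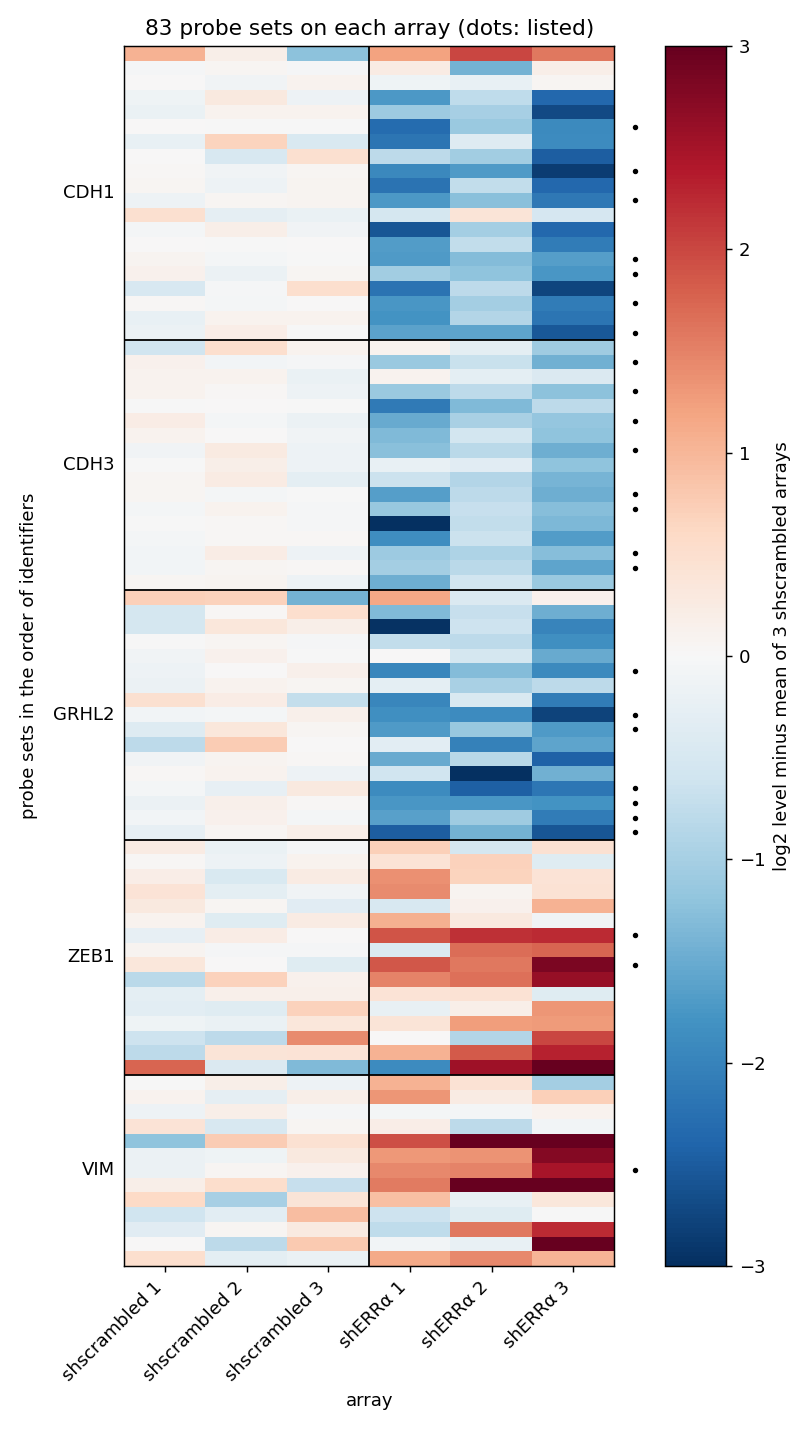
Level of each of the 83 probe sets on each array, as log2 units above (red) or below (blue) the mean of the 3 shscrambled arrays; colours are capped at 3 log2 units and dots mark listed probe sets. The shERRα arrays are blue through most of CDH1, CDH3 and GRHL2, palest in replicate 2 for CDH1 and CDH3, and red in parts of ZEB1 and VIM, mainly in replicates 2 and 3.

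The shERRα arrays were not alike for these genes. Replicate 2 had the highest CDH1 value of the 3 at 16 of 20 probe sets, and replicate 3 the lowest at 12 of 20. CDH3 followed the same order, with replicate 2 highest at 12 of 17 and replicate 3 lowest at 10 of 17. GRHL2 was lowest in replicate 3 at 9 of 17. For ZEB1, replicate 3 was highest at 10 of 16 and replicate 1 lowest at 8 of 16, and for VIM replicate 3 was highest at 7 of 13 and replicate 1 lowest at 7 of 13. Replicate 3 held the lowest cadherin and the highest ZEB1 and VIM values at most of these probe sets, which are not independent because they share the array. How often each array is lowest or highest over all probe sets was not counted, so this order is not read as particular to these genes.

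The arrays also spread more in shERRα. For CDH1 the SD over 3 arrays was larger in shERRα at 19 of 20 probe sets, with a median of 0.64 against 0.16 log2 units. For CDH3 this held at 16 of 17, with 0.41 against 0.13, and for GRHL2 at 13 of 17, with 0.62 against 0.17. For ZEB1 it held at 13 of 16, with 0.64 against 0.34, and for VIM at 8 of 13, with 0.58 against 0.43. Over all probe sets on the arrays 63.4% had the larger SD in shERRα, with medians of 0.51 and 0.37 log2 units. The VIM run did not exceed this share.

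Without shERRα replicate 1, the array that stood apart, the listed probe sets of CDH1, CDH3 and GRHL2 differed by -2.22, -1.03 and -1.79 log2 units, and those of ZEB1 and VIM by 2.21 and 1.99. The run medians without it were -1.86 for CDH1, -0.95 for CDH3, -1.80 for GRHL2 and 2.24 for VIM.

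Each run median was set among those of all 19182 runs with at least 3 probe sets, whose median difference was -0.00 log2 units. The CDH1 run differed by -1.77 log2 units (SE 0.31), and 15 runs had a lower value. The GRHL2 run differed by -1.67 (SE 0.23), with 22 runs lower. The CDH3 run differed by -1.06 (SE 0.25), with 235 runs lower. The VIM run differed by 1.79 (SE 0.52), with 5 runs higher, but its shscrambled level, 2.31 log2 units, was near background, so neither its size nor its place is exact. Both also depend on the summary: the median of the 13 VIM probe set changes was 1.02 log2 units, and 7 of the 13 overlapped between groups. The ZEB1 run had 126 runs higher. A run median at least 2-fold lower was found in 1.56% of runs and one at least 2-fold higher in 0.313%. The run medians of CDH1, CDH3 and GRHL2 did not overlap between groups, as in 10.5% of runs with the lower side in shERRα, and that of VIM did not either, as in 6.66% on the higher side. The genes were chosen for their difference, so these places describe them and test nothing.

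**Figure D4:**
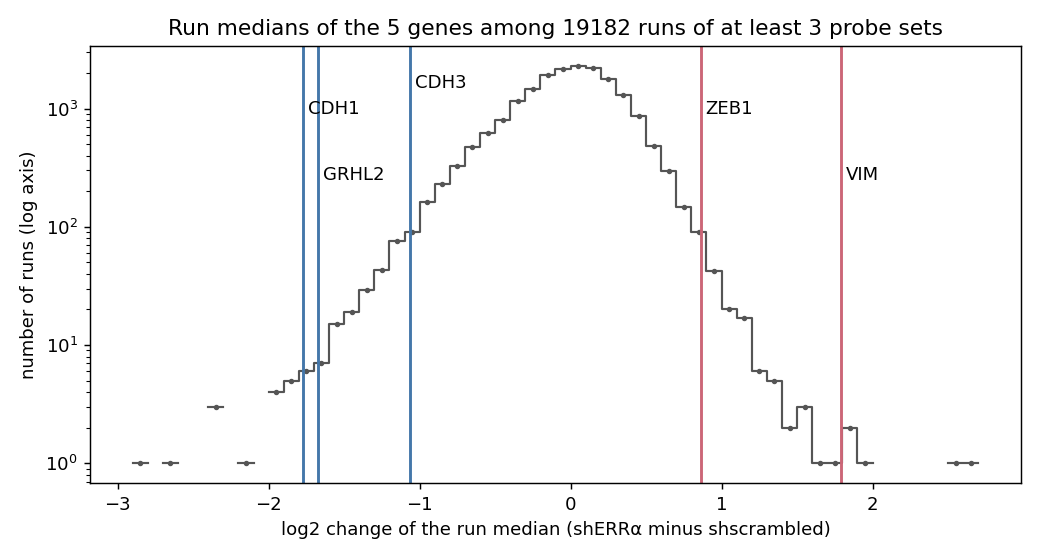
Number of runs of at least 3 probe sets (log axis) by the log2 difference of the run median, shERRα minus shscrambled, in steps of 0.1; vertical lines mark the 5 genes. CDH1 at -1.77, GRHL2 at -1.67 and VIM at 1.79 stand in the sparse ends of the distribution, VIM from a shscrambled level near background, and CDH3 at -1.06 and ZEB1 at 0.86 in its flanks. The median of the 13 VIM probe set changes was 1.02.

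Other genes of the same pathways could be seen only where the authors' comparison names them, so a gene that is not listed may still have differed. Among genes listed in a single direction, 65.0% were lower. Unlisted probe sets have no names, so the share of all genes on the arrays that were listed is not known. The counts from gene lists given below are therefore descriptions, and nothing is read from their size or direction. Among 20 epithelial genes known as GRHL2 targets, 8 were listed lower, CDH1 included, and 1 higher. The tight junction genes OCLN (2.44-fold) and CLDN7 (2.35-fold), the small GTPase RAB25 (2.74-fold), the membrane protease ST14 (2.67-fold), its inhibitor SPINT2 (2.04-fold) and the receptor ERBB3 (2.23-fold) were each lower at 1 listed probe set. Their runs had lower medians too, from -0.46 log2 units for ERBB3 to -1.23 for RAB25. ESRP1, a splicing regulator of epithelial cells, was 2.82-fold lower over 6 listed probe sets (run median -1.51). PROM2 was the one listed higher, at 4.03 against 1.62 log2 units at 1 probe set, but its run median was -0.18. The level of 1.62, in shscrambled, was near background.

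Of 18 epithelial transcription factors and splicing regulators, 3 were listed, all lower: GRHL2, ESRP1 and ELF3. ELF3, an ETS factor of epithelial cells, was at 6.55 ± 0.43 against 5.02 ± 0.04 log2 units (SD, n = 3) over 3 listed probe sets (run median -1.62). Of 15 repressors of epithelial genes, a list that also holds ZEB2, SNAI1, SNAI2 and TWIST1, ZEB1 alone was listed. Of 15 genes in a list of classical cadherins and catenins, which also holds AFDN, 3 were listed, all lower: CDH1, CDH3 and AFDN. AFDN encodes afadin, which links junctional nectins to actin. It was 2.36-fold lower over 2 listed probe sets, and its run of 29 had a median of -1.17. Of 13 other cadherins and desmosomal cadherins, DSG3 was listed lower and CDH16 higher, each at 1 probe set near background, with run medians of -0.01 and 0.39. By symbol, 6 cadherin superfamily genes were listed, 5 lower and 1 higher. They include CDH23, at 3.45 against 1.24 log2 units over 2 listed probe sets, the latter near background (run median 0.10). PCDH1 was 2.08-fold lower at 1 listed probe set (run median -0.90).

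Of 20 mesenchymal genes, 3 were listed higher and 4 lower, so the list was split between directions. Beside VIM, the fibronectin receptor subunit ITGA5 was 2.14-fold higher (run median 0.48) and COL3A1 2.31-fold higher (run median 0.20). The receptor tyrosine kinase AXL (5.40-fold over 5 listed probe sets), fibronectin, FN1 (2.26-fold), COL1A2 and MMP14 were lower. FN1 and AXL had run medians of -0.99 and -0.96, and COL1A2 and MMP14 of -0.11 and -0.02. The shERRα level of COL1A2 was near background. Among 21 intermediate filament genes, KRT15, LMNA and NES were listed higher with VIM, and KRT23 lower. KRT15, a keratin of basal epithelial cells, was 5.96-fold higher over 2 listed probe sets (run median 1.11), and KRT23 was 4.75-fold lower over 4 (run median -1.23). The nuclear lamin LMNA was 2.12-fold higher (run median 0.64) and NES 2.11-fold higher (run median 0.21).

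Of 18 genes of the TGF-beta pathway, which is known to induce ZEB1, 4 were listed, all lower. SKIL, a repressor of SMAD activity, was 3.15-fold lower over 4 listed probe sets (run median -1.77). The inhibitors of DNA binding ID2 and ID3 were 6.01-fold and 2.38-fold lower, with run medians of -1.43 and -1.06. The ligand TGFB1 was at 2.79 against 0.80 log2 units at 1 probe set, the lower of these near background, with a run median of -1.11.

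Markers of other cell types were read beside VIM, which fibroblasts, endothelium and leukocytes also express. Of 8 fibroblast markers COL3A1 was listed higher and COL1A2 lower. Of 5 endothelial markers KDR was listed higher (0.69 against 2.49 log2 units), and of 6 leukocyte markers ITGAM (1.64 against 4.23 log2 units). Each rested on 1 probe set. The shscrambled levels of KDR and ITGAM and the shERRα level of COL1A2 were near background, so their sizes are not exact. The run medians of KDR and ITGAM were 0.43 and 0.27. None of 6 neural or HEK293-type markers and none of 8 colon epithelium markers, such as EPCAM and KRT20, was listed in either direction. Because unlisted probe sets have no names, the summed level of each marker list could not be formed, the colon identity of the line could not be checked this way, and the part of other cells in these differences was not tested.

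To find genes with a like pattern, each member's median per array over its listed probe sets was correlated over the 6 arrays with that of 120 genes having at least 3 listed probe sets. All were chosen for a difference between the same 2 groups of arrays, so Pearson's r is high for any pair of the same direction and is given only as the measure of likeness. Nearest to CDH1 were CTH (r = 0.993), EPAS1 (0.991) and ACSL1 (0.988), and nearest to CDH3 were ASS1 (1.00), CKMT1A (0.997) and NUB1 (0.997). SKIL (0.998), SCARB1 (0.996) and MYO5C (0.996) were nearest to GRHL2. NT5E (0.995), DCLK1 (0.977) and MACF1 (0.976) were nearest to ZEB1, and XRCC4 (0.991), DCLK1 (0.981) and NRP1 (0.968) to VIM. ASS1, the argininosuccinate synthase, was at 9.07 ± 0.30 log2 units in shscrambled and 6.78 ± 0.54 in shERRα (SD, n = 3), a larger difference than that of CDH3. CKMT1A has a nearly identical copy, CKMT1B, and its values cannot be assigned to it alone.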

How the data were processed

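The deposited value table holds 1 score per probe set and array: log2 values from RMA, a method the submitters' processing notes name, whose decimal marks were lost. The sources used here give no software version, array annotation or genome build. A string of 7 digits was taken as 10 or above, any other as having 1 digit before the mark. The 90473 values (5.86%) readable either way took the reading nearer to the clear values of the same probe set. Of 1281 probe sets where this stayed undecided, the deposited fold change settled 12 and 1269 were left out, which leaves 256161. The restored values gave all 2122 deposited fold changes to within 0.001 log2 units and the 2122 p-values to within 1%. The authors' deposited comparison gives a fold ratio, shERRα over shscrambled, and an unadjusted t-test p-value, per the file headers. The same rule (equal-variance p under 0.01, at least 2-fold) selected these 2122 probe sets and no others.

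Groups and replicate numbers came from the sample titles. A missing identifier ends a run. Changes are differences of group means of the per-array median. Whole-table counts used limma 3.58.1 in R 4.3.3 with Benjamini-Hochberg adjustment, and SciPy 1.17.1. The code was tested on simulated data. Members, gene lists and the naming rule (members, listed genes of each list, 3 most similar genes per member) were chosen with earlier results of these data known. CDH23 and PCDH1 were named outside this rule, as the other listed cadherins. Names were matched to RefSeq symbols by accession for 1948 of the listed probe sets, by symbol for 103 and by older symbol for 27; 11 kept the deposited name and 33 had none. All value columns matched a sample.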

Additional observations from a re-analysis of the deposited data

How the results depend on the processing

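All differences of the 5 genes kept their direction under every setting run: each array left out, quantile normalisation, centring on array medians, array weights, the mean of a run, dim probe sets left out and both readings of the undecided probe sets. The median of the probe set changes, run for the listed probe sets, kept the direction too. Since these genes were chosen for their difference on the same arrays, this says little about stability. When each run was summarised by its mean, CDH1 was at -1.30 and VIM at 1.02 log2 units.

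Leaving out 1 array at a time gave -1.97 to -1.48 log2 units for the CDH1 run, -1.31 to -0.92 for CDH3, -1.80 to -1.45 for GRHL2, 0.70 to 1.18 for ZEB1 and 1.53 to 2.24 for VIM. Member probe sets under the rule of p under 0.01 and 2-fold numbered 22 lower and 3 higher with all arrays, and 4 to 29 lower and 1 to 4 higher with 1 array left out. The lower count was 6 without shscrambled replicate 1, 4 without replicate 2 and 6 without replicate 3, and 7 and 12 without shERRα replicates 1 and 3. The higher count was 1 without shscrambled replicate 2, without its replicate 3 and without shERRα replicate 2. The cause of these moves was not tested. With all arrays, limma's p gave 30 lower and 9 higher, and a replicate block in limma gave 20 lower and 8 higher. Quantile normalisation and centring on array medians each gave 18 lower and 3 higher. Deviations of same-numbered arrays correlated at 0.048 to 0.084, and those of different-numbered arrays at -0.060 to -0.005. All were small, and the numbers were not taken as pairs, but a weak pairing is not excluded. Limma called 0 probe sets of the whole table at an adjusted p under 0.05 in every setting run, with 12365 to 22063 at an unadjusted p under 0.05.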
